A study of Homo sapiens with 12 samples.

Results

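The miR-30 family was followed through 12 small RNA libraries of human AML cells, by the counts of 7 of its mature arms. The listed arms are hsa-miR-30a-5p, hsa-miR-30a-3p, hsa-miR-30b-5p, hsa-miR-30c-5p, hsa-miR-30d-5p, hsa-miR-30e-5p and hsa-miR-30e-3p. They are 7 of the 1204 mature miRNAs in the count table and 7 of the 11 miR-30 arms it holds. All 7 passed the filter on low counts and were among the 659 miRNAs tested. The other 4 arms, miR-30b-3p, miR-30c-1-3p, miR-30c-2-3p and miR-30d-3p, are described beside them.

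The libraries came from MV4-11 and Molm-14, AML lines that both carry the FLT3-ITD mutation, an internal duplication in a receptor tyrosine kinase gene. In the MPC1 KO cells, CRISPR/Cas9 with 1 guide delivered by a lentiviral construct with a GFP marker had deleted MPC1, a subunit of the carrier that brings pyruvate into mitochondria. The Empty Vector (EV) controls carried the construct with no targeting guide. Each of the 4 groups, MV4-11 EV, MV4-11 MPC1 KO, Molm-14 EV and Molm-14 MPC1 KO, had 3 libraries, and whether these were separate cultures, or the knockout lines single clones, is not given in the sources used here, so p-values measure only the spread between these libraries. A small RNA library does not read the MPC1 transcript, so the deletion was not checked here.

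A miRNA gene is transcribed as a hairpin that Drosha and Dicer cut into a short duplex. The strand from the left side of the hairpin is the 5p arm and the strand from the right side the 3p arm, and the strand that an Argonaute protein keeps guides it to mRNAs through the seed, bases 2 to 8. The 5p arms of the miR-30 family share a seed and are the usual guides, widely expressed and known for roles in differentiation, epithelial identity and autophagy. The miR-30a hairpin is also the scaffold on which many engineered silencing hairpins were built.

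The mature sequences show how little separates some of these arms. They were copied from RefSeq (GRCh38.p14), with the seed in capitals, and 5 of the 7 listed arms are printed.
miR-30a-5p: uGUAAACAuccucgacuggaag
miR-30e-5p: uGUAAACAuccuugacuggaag
miR-30c-5p: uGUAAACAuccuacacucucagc
miR-30a-3p: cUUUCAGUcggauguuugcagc
miR-30e-3p: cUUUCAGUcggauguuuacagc

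The first 3 share the seed GUAAACA and the last 2 share the seed UUUCAGU. Positions are counted from 1 at the 5′ end. miR-30a-5p and miR-30e-5p are both 22 bases long and differ by the single substitution C13U. miR-30a-3p and miR-30e-3p differ by the single substitution G18A. miR-30c-5p is 23 bases long and has the same sequence at 2 loci. The hairpins of miR-30e and miR-30a are shown next with both mature arms in capitals, since the use of these arms is compared further on.
MIR30E: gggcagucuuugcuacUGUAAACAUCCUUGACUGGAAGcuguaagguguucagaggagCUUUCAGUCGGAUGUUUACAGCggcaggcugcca
MIR30A: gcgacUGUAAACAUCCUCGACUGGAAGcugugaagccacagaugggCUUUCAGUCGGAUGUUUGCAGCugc

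MIR30E lies at chr1:40754355-40754446 on the plus strand of GRCh38, within an intron of NFYC, which encodes a subunit of the CCAAT-binding factor NF-Y. MIR30C1 lies 2929 bases further along in the same gene, at chr1:40757284-40757372. MIR30A lies at chr6:71403551-71403621 on the minus strand, in an intron of the long non-coding RNA gene LINC00472, and MIR30C2 at chr6:71376960-71377031 overlaps an exon of LINC00472.

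The remaining hairpins, MIR30B and MIR30D, start 4356 bases apart on the minus strand of chromosome 8, inside 1 long non-coding RNA gene and outside its annotated exons. The 6 hairpins therefore form 3 pairs of neighbours on the same strand, one on each of chromosomes 1, 6 and 8.

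The libraries held 3870104 to 8683456 counts. Of the 5 blood cell miRNAs, miR-142-3p, miR-142-5p, miR-223-3p and miR-155-5p each took at least 2533 CPM (counts scaled to a common library total) in every library, and miR-181a-5p, which has 2 loci like miR-30c-5p, held at most 8 counts. In MV4-11 the 5 summed to 68105 to 74974 CPM (EV) and 71572 to 74487 (MPC1 KO). In Molm-14 they summed to 77861 to 84899 (EV) and 98362 to 104667 (MPC1 KO). The 9 miRNAs of other cell types summed to 812 to 994 CPM in MV4-11 and 233 to 310 in Molm-14, with miR-143-3p and miR-200c-3p highest. In each group the libraries differed by far more than sampling noise, so none was counted as a repeat of another. Molm-14 EV replicate 2 was the shallowest library, and it stood apart from replicates 1 and 3 (chi-square per degree of freedom 167 and 116, against 25.2 between those replicates). By the same measure Molm-14 MPC1 KO replicate 2 stood apart from its group (91.7 and 77.5, against 12.3). Pairs of MV4-11 libraries gave 38.9 to 114 (EV) and 36.2 to 86.9 (MPC1 KO). MV4-11 EV replicate 1 was the deepest library. Where leaving out either of these Molm-14 libraries changed a call or moved a value by much, the value or the number of arms called without it is given.

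The family was abundant in both lines and higher in MV4-11. Values are CPM after scaling by edgeR's TMM factors unless stated otherwise. The summed level of the 7 arms in MV4-11 was 64079 ± 8863 (SD, n = 3) with EV and 57683 ± 4484 with MPC1 KO. In Molm-14 it was 31509 ± 3779 with EV and 33024 ± 843 with MPC1 KO. The family took 5.73 to 6.96% of all counts in the MV4-11 libraries and 2.65 to 3.33% in the Molm-14 libraries. The totals of the lines did not overlap, and the EV means differed 2.03-fold. Within each line the EV and MPC1 KO totals overlapped. Fewer cells holding a miRNA and less of it per cell cannot be told apart in these bulk libraries.

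A single arm, miR-30d-5p, carried most of the family. It stood at 58758, 48015 and 42721 CPM in the 3 MV4-11 EV libraries and at 47089, 39487 and 45547 in the MV4-11 MPC1 KO libraries. In the Molm-14 EV libraries it stood at 19420, 16032 and 20292, and in the Molm-14 MPC1 KO libraries at 18986, 19883 and 19974. Every MV4-11 library was thus above every Molm-14 library, and the knockout and control libraries of a line overlapped. Separation of the lines within a genotype was common, at 423 (EV) and 445 (MPC1 KO) of all 659 tested miRNAs. The number separated over both genotypes together was not computed. By mean level miR-30d-5p ranked 6 among the tested miRNAs in both MV4-11 groups and 12 in both Molm-14 groups.

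miR-30e-5p was the next arm and did not follow this pattern. Its levels were 9477, 9045 and 7262 CPM in MV4-11 EV and 9194, 7261 and 7272 in MV4-11 MPC1 KO. For Molm-14 EV they were 9600, 7199 and 10842, and in Molm-14 MPC1 KO 10026, 10212 and 10562. The EV libraries of the lines overlapped, the lowest of the 12 being Molm-14 EV replicate 2, whereas the knockout libraries of Molm-14 all lay above those of MV4-11. Its partner arm miR-30e-3p was higher in MV4-11, at 4005, 4000 and 4696 in EV and 4391, 4885 and 4171 in MPC1 KO. For Molm-14 EV it stood at 2626, 3468 and 2945, with replicate 2 the highest, and in Molm-14 MPC1 KO at 2355, 2580 and 2340. The arms of this hairpin lay in opposite order between the lines in the MPC1 KO libraries, while in the EV libraries miR-30e-5p overlapped.

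miR-30b-5p, the neighbour of miR-30d, stood well below it, at 1171, 1409 and 1219 CPM in MV4-11 EV and at 983, 1144 and 1194 in MV4-11 MPC1 KO. In Molm-14 it was at 620, 613 and 616 in EV and at 607, 662 and 631 in MPC1 KO, which was below all 6 MV4-11 libraries. miR-30a-5p was lower still, at 151, 145 and 117 in MV4-11 EV and 143, 119 and 128 in MV4-11 MPC1 KO. For Molm-14 EV it stood at 79.6, 57.6 and 85.3, and in Molm-14 MPC1 KO at 72.3, 75.4 and 78.1, again below all 6 libraries of the other line.

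The last 2 arms were read at the margin of these libraries. miR-30a-3p had 23 to 71 counts per library, with group means of 8.73 (EV) and 8.69 CPM (MPC1 KO) in MV4-11, and of 6.87 (EV) and 5.79 CPM (MPC1 KO) in Molm-14. It amounted to 0.181 to 0.275% of the counts of miR-30e-3p, which differs from it by G18A, in the 12 libraries. For the 5p arms of the same hairpins, which differ by C13U, the percentage was 1.56 to 1.76 in MV4-11 and 0.721 to 0.830 in Molm-14. Whether reads of one arm were counted under the other was not tested.

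miR-30c-5p had 6 to 60 counts per library, with group means of 6.85, 6.01, 3.59 and 3.62 CPM in the order MV4-11 EV, MV4-11 MPC1 KO, Molm-14 EV and Molm-14 MPC1 KO. Its 3p partner from the chromosome 1 hairpin, miR-30c-1-3p, had 290 to 523 counts, 8.72 to 52.8 times as many in the same library. The partner from the chromosome 6 hairpin, miR-30c-2-3p, was listed at 0 in all 12 libraries, where 3 counts are the limit that a count of 0 allows. How reads that match both loci of miR-30c-5p were counted is not given in the sources used here, so its level is uncertain. miR-24-3p and miR-26a-5p, which also have 2 loci each, stood at 6 to 32 and 6 to 28 counts, whereas miR-92a-3p and miR-128-3p, with 2 loci as well, stood at 12611 to 34136 and 9799 to 23611. These 4 were chosen after their values were seen.

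**Figure D1:**
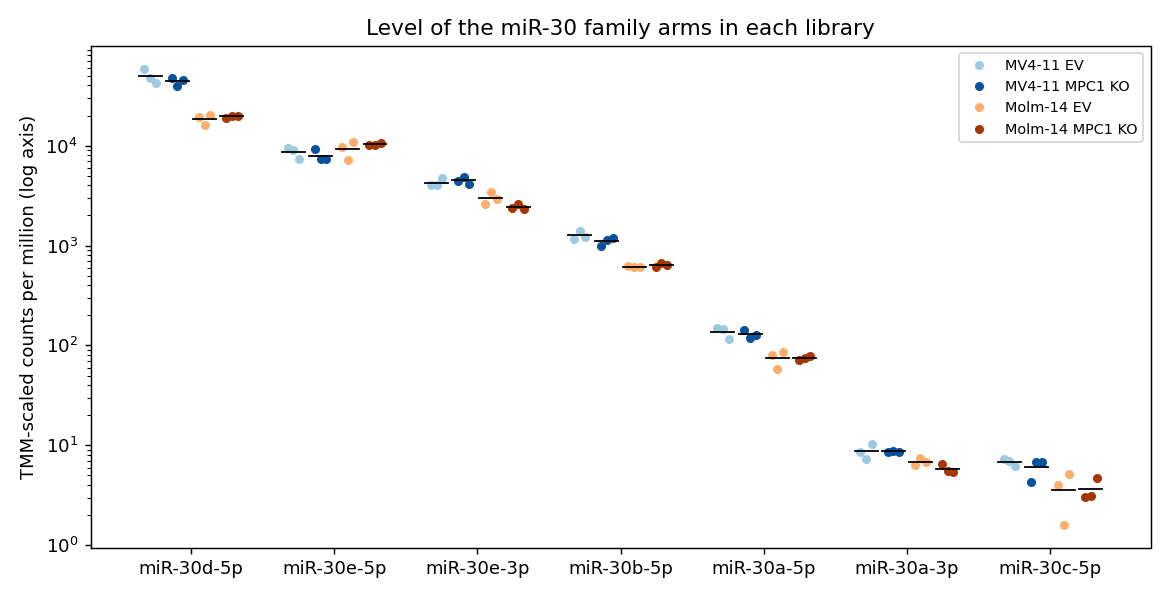
TMM-scaled CPM (log axis) of each arm in the 12 libraries, one point per library and a bar at each group mean (n = 3). miR-30d-5p, miR-30b-5p and miR-30a-5p are lower in both Molm-14 groups than in both MV4-11 groups, while miR-30e-5p is at 7199 to 10842 in all 12 libraries.

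In every group the mean levels of the other 6 arms ran down in the order miR-30d-5p, miR-30e-5p, miR-30e-3p, miR-30b-5p, miR-30a-5p and miR-30a-3p. Neighbours in this order did not overlap within a group. miR-30c-5p was left out of the order, as its count is uncertain. The order is one of reads, and the efficiency with which each sequence was ligated and amplified was not tested.

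As shares of the family counts, the lines had separate compositions. miR-30d-5p made up 77.6 ± 1.98% (SD, n = 3) of the EV and 76.3 ± 1.73% of the MPC1 KO family counts in MV4-11, against 59.0 ± 0.918% and 59.4 ± 0.143% in Molm-14. miR-30e-5p made up 13.4 ± 0.880% and 13.7 ± 1.20% in the MV4-11 groups, and 29.0 ± 2.49% and 31.1 ± 0.470% in the Molm-14 groups. For both arms the lines did not overlap in either genotype. The ratio of miR-30d-5p to miR-30e-5p counts, which does not depend on scaling, was 5.12 to 6.26 in the MV4-11 libraries and 1.87 to 2.23 in the Molm-14 libraries. The shares were not tested, as they repeat the levels of the arms.

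Grouped by chromosome, and leaving out miR-30c-5p, the chromosome 8 arms miR-30b-5p and miR-30d-5p held 76.8 to 81.4% of the family in MV4-11 and 60.1 to 61.9% in Molm-14. The chromosome 1 arms of miR-30e held 18.3 to 23.0% and 37.8 to 39.6%. The chromosome 6 arms of miR-30a held 0.217 to 0.266% over all 12 libraries, with the EV groups of the lines overlapping. The share of miR-30b-5p was also alike, with means of 2.01, 1.93, 1.98 and 1.92% in the 4 groups.

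**Figure D2:**
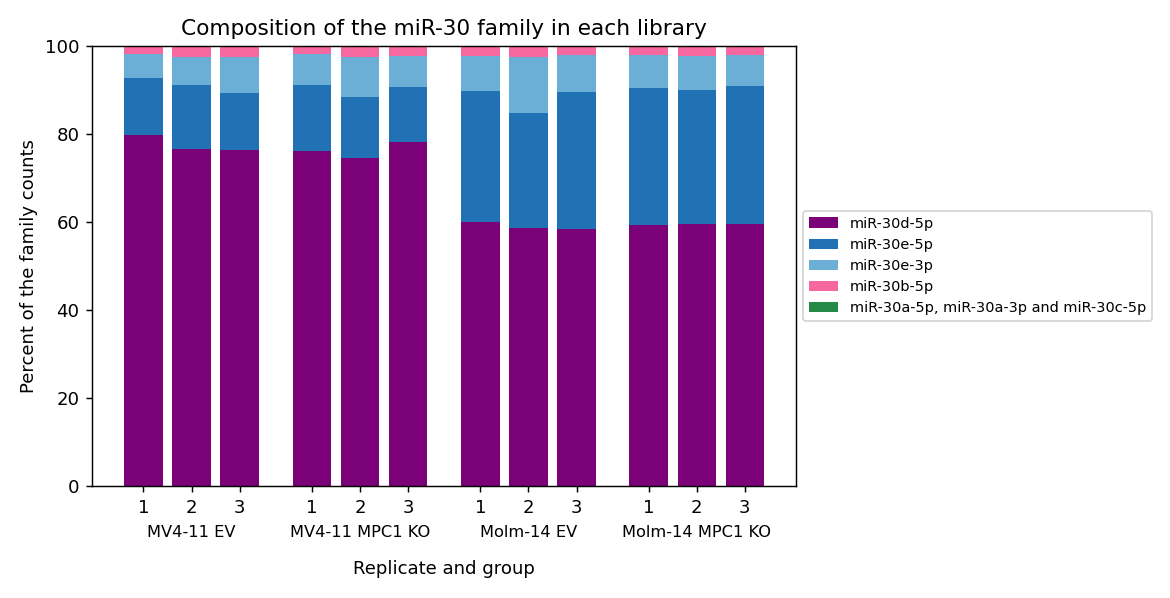
Percent of the family counts taken by each arm in the 12 libraries, grouped by cell line and genotype. miR-30d-5p takes 74.6 to 79.9% in the MV4-11 libraries and 58.3 to 60.0% in the Molm-14 libraries, and miR-30a-5p, miR-30a-3p and miR-30c-5p together are too thin to see.

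The difference between the lines was tested first in the EV libraries, with edgeR's quasi-likelihood test over all 659 miRNAs and Benjamini-Hochberg adjustment. 5 of the 7 arms were lower in Molm-14 EV than in MV4-11 EV. Of all tested miRNAs 61.9% were called in this comparison, and 28.4% were called lower in Molm-14, so a call between these lines was common. The median log2 fold change was -0.89 over the 7 arms and 0.060 over all 659 miRNAs.

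The chromosome 8 arms differed most. miR-30d-5p was lower by a log2 fold change of -1.42 (SE 0.119, adjusted p = 1.79e-10), or 2.68-fold, and miR-30b-5p by -1.04 (SE 0.0971, adjusted p = 1.29e-09). miR-30a-5p was lower by -0.89 (SE 0.137, adjusted p = 4.24e-06), and the 3p arm miR-30e-3p by -0.49 (SE 0.107, adjusted p = 0.000328). Calls for these 4 arms were kept under all alternatives run, and their EV libraries did not overlap between the lines. The EV groups lay apart in this way for 5 of the 7 arms, and for 423 of all 659 tested miRNAs. miR-30c-5p was lower by -0.90 (SE 0.319, adjusted p = 0.0171). Without Molm-14 EV replicate 2, which held 6 of its counts, this was -0.57 with an adjusted p of 0.115.

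miR-30e-5p and miR-30a-3p did not pass. The log2 fold change of miR-30e-5p was 0.10 (95% interval -0.17 to 0.37, adjusted p = 0.531). Without Molm-14 EV replicate 2 it was 0.27 with an adjusted p of 0.0463, higher in Molm-14. For miR-30a-3p it was -0.35 (95% interval -0.80 to 0.11, adjusted p = 0.177), and with upper-quartile factors -0.53 with an adjusted p of 0.0464.

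The same comparison between the MPC1 KO libraries was added after the data were seen and called 7 of the 7 arms. It shares no library with the first. Both compare the same lines within the same fit, so it is not an independent repeat. Of all tested miRNAs 62.4% were called here, and 29.4% were called lower in Molm-14. miR-30d-5p was lower by -1.17 (SE 0.118, adjusted p = 5.53e-09), miR-30e-3p by -0.89 (SE 0.108, adjusted p = 1.15e-07), miR-30b-5p by -0.81 (SE 0.0967, adjusted p = 9.44e-08) and miR-30a-5p by -0.79 (SE 0.136, adjusted p = 1.99e-05). miR-30a-3p, at -0.58 with an adjusted p of 0.0260, and miR-30c-5p, at -0.76 with an adjusted p of 0.0417, passed by less. miR-30e-5p was the arm called higher in Molm-14, at 0.38 (SE 0.132, adjusted p = 0.0174). These last 3 calls were lost under some alternatives, and 4 of the 7 arms were called without MV4-11 MPC1 KO replicate 2 or without Molm-14 MPC1 KO replicate 2. Among miRNAs with a mean of at least 100 counts, which leaves out miR-30a-3p and miR-30c-5p, 4 of 5 were called.

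Among the 3p arms outside the list, miR-30b-3p and miR-30d-3p fell between the EV lines as their partners did. miR-30b-3p went from 69.3 ± 4.50 CPM (SD, n = 3) in MV4-11 EV to 36.9 ± 5.34 in Molm-14 EV (log2 fold change -0.91, adjusted p = 1.76e-06). miR-30d-3p went from 180 ± 4.33 to 82.6 ± 10.4 (log2 fold change -1.12, adjusted p = 4.85e-09). miR-30c-1-3p, the neighbour of miR-30e in NFYC, went from 68.5 ± 4.24 to 86.0 ± 2.09 (log2 fold change 0.33, adjusted p = 0.0126), a call lost under 4 of the 8 alternatives that kept all libraries (adjusted p up to 0.248) and without MV4-11 EV replicate 1 or Molm-14 EV replicate 1. In the MPC1 KO libraries its log2 fold change was -0.0041 (adjusted p = 0.976).

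**Figure D3:**
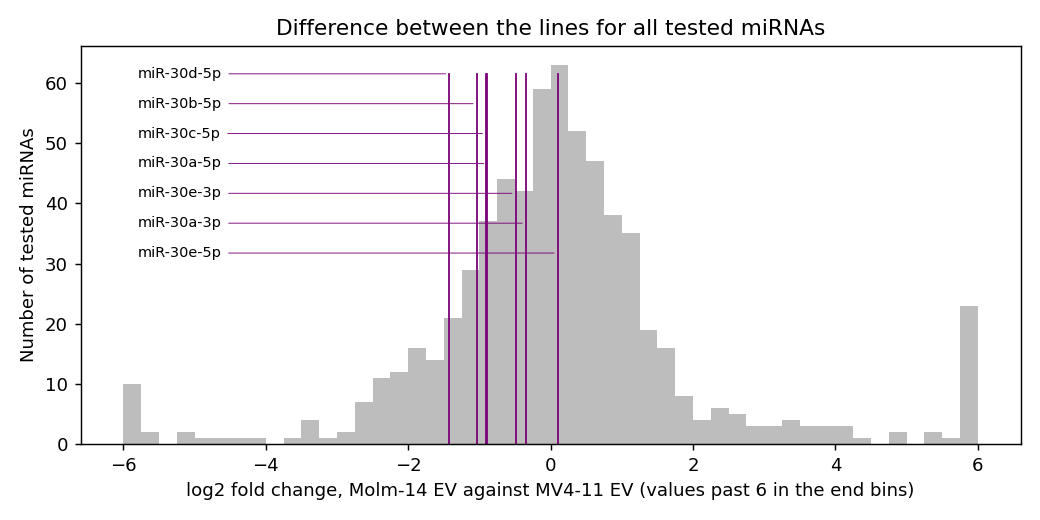
Histogram of the log2 fold change between Molm-14 EV and MV4-11 EV for the 659 tested miRNAs (x axis, values past 6 in the end bins; y axis, number of miRNAs), with a line at each of the 7 arms. 6 of the 7 arms lie below 0, from -1.42 for miR-30d-5p to -0.35 for miR-30a-3p, and miR-30e-5p lies at 0.10.

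Deletion of MPC1 was then compared with EV within each line. In MV4-11, 0 of the 7 arms were called, 0 had an unadjusted p under 0.05, and DESeq2 and limma-voom called 0 as well. Of all tested miRNAs 3.03% were called, and the 3 libraries of a group lay all on one side of the other 3 for 17.5%, but for 0 of the 7 arms. The log2 fold changes of the arms ran from -0.19 to 0.082. For miR-30d-5p the value was -0.18 (95% interval -0.42 to 0.063, adjusted p = 0.563), for miR-30e-5p -0.12 (-0.39 to 0.15) and for miR-30b-5p -0.19 (-0.39 to 0.0042).

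In Molm-14, 0 of the 7 arms were called by edgeR, DESeq2 or limma-voom, while 6.83% of all tested miRNAs were called by edgeR. 1 arm, miR-30e-3p, had an unadjusted p under 0.05. It stood at 3013 ± 425 CPM (SD, n = 3) in the controls and 2425 ± 134 in the knockout, with all 3 knockout libraries below the controls. The log2 fold change was -0.31 (95% interval -0.53 to -0.092, adjusted p = 0.0791). Groups lay apart in this way for 27.2% of all tested miRNAs. Without Molm-14 EV replicate 2, which had the highest level, the value was -0.17 with an adjusted p of 0.480, and without Molm-14 EV replicate 1 it was -0.39 with an adjusted p of 0.0418. Over all alternatives that kept every library its adjusted p was 0.0702 to 0.221. The blood cell miRNAs summed to more in the knockout libraries of this line, as given above, and their part in these values was not tested.

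The other arms in Molm-14 overlapped between the genotypes. miR-30d-5p had a log2 fold change of 0.078 (95% interval -0.16 to 0.32, adjusted p = 0.805), miR-30e-5p 0.16 (-0.12 to 0.43, adjusted p = 0.577), miR-30b-5p 0.039 (-0.16 to 0.24, adjusted p = 0.898) and miR-30a-5p 0.016 (-0.27 to 0.30, adjusted p = 0.974). Leaving out each library in turn gave 0.013 to 0.15 for miR-30d-5p and 0.037 to 0.30 for miR-30e-5p, the lowest without Molm-14 EV replicate 2 and the highest without Molm-14 EV replicate 3, and no call. For the low arms the intervals were wider, from -0.72 to 0.25 for miR-30a-3p and from -0.77 to 0.68 for miR-30c-5p.

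Beyond the list, 2 more 3p arms were lower in every Molm-14 MPC1 KO library than in the EV libraries without passing the adjusted threshold. In this comparison 86 of all 289 tested 3p arms had groups that lay apart. miR-30b-3p stood at 34.5, 43.0 and 33.1 CPM in EV and at 27.3, 25.1 and 30.0 in MPC1 KO (log2 fold change -0.42, adjusted p = 0.0689). miR-30c-1-3p stood at 88.4, 84.6 and 85.0 in EV and at 69.6, 70.1 and 68.0 in MPC1 KO (log2 fold change -0.31, adjusted p = 0.0882). Without Molm-14 EV replicate 2 the values were -0.27 (adjusted p = 0.331) and -0.29 (adjusted p = 0.182). miR-30d-3p was at 0.056 (adjusted p = 0.868). In MV4-11 it was miR-30d-3p that lay apart, at 175, 182 and 182 in EV and 153, 156 and 144 in MPC1 KO (log2 fold change -0.25, adjusted p = 0.284). Groups lay apart in that line for 53 of all 289 tested 3p arms. The median log2 fold change in Molm-14 was -0.31 over the 5 tested 3p arms of the family and -0.066 over all 289 tested 3p arms. It was 0.039 over the 5 tested 5p arms of the family and 0.016 over all 257. The family medians without Molm-14 EV replicate 2 were -0.17 for the 3p and 0.013 for the 5p arms.

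The difference between the knockout effects of the lines was not called for any of the 7 arms, against 6.68% of all tested miRNAs. It was largest for miR-30e-3p, at -0.40 on the log2 scale (Molm-14 minus MV4-11, 95% interval -0.71 to -0.083, adjusted p = 0.147), whose unadjusted p of 0.0154 was the only one under 0.05. For miR-30d-5p it was 0.26 (-0.086 to 0.60, adjusted p = 0.431). All 5 of the 5p arms had values above 0 and both 3p arms values below 0, but without Molm-14 EV replicate 2 those of miR-30a-5p and miR-30c-5p were -0.084 and -0.20.

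**Figure D4:**
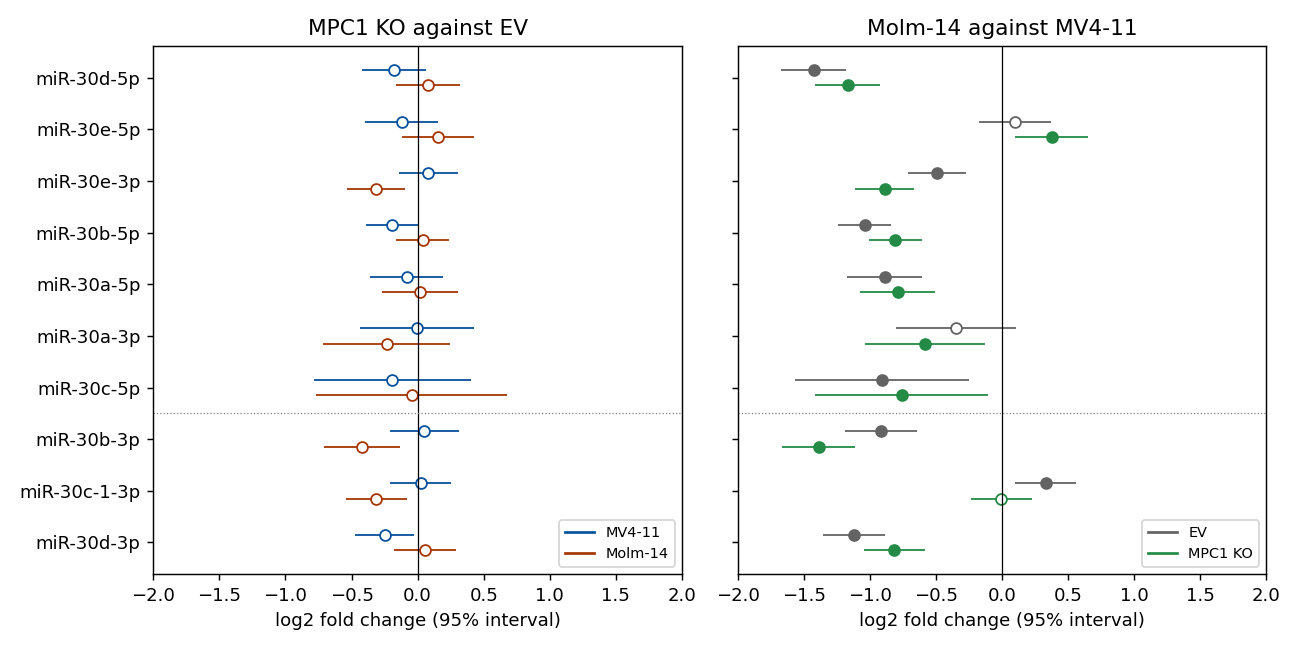
Log2 fold changes with 95% intervals from edgeR for MPC1 KO against EV in each line (left) and Molm-14 against MV4-11 in each genotype (right), with filled points for an adjusted p under 0.05 and the 3 tested arms outside the list below the dotted line. The left panel holds no filled point, and the right panel has miR-30d-5p at -1.42 and -1.17.

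The use of the 2 arms of a hairpin was compared as the log2 ratio of 5p to 3p counts in the same library, which no scaling factor changes. The miR-30e hairpin gave 2.37, 2.26 and 1.55 reads of 5p per read of 3p in MV4-11 EV, and 2.09, 1.49 and 1.74 in MV4-11 MPC1 KO. For Molm-14 EV it gave 3.66, 2.08 and 3.68, and in Molm-14 MPC1 KO 4.26, 3.96 and 4.51. All Molm-14 libraries but EV replicate 2 were above every MV4-11 library.

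Between the EV libraries the log2 ratio of miR-30e was 1.02 ± 0.337 (SD, n = 3) in MV4-11 and 1.60 ± 0.474 in Molm-14. The difference was 0.59 (exact two-sided permutation p = 0.3, 0.48 after adjustment over 6 comparisons), and 0.86 without Molm-14 EV replicate 2. With 3 libraries against 3 no exact p can fall below 0.1. Over all 12 libraries, exchanging the line within EV and within MPC1 KO in 400 ways, the difference was 0.93, or 1.90-fold (exact two-sided permutation p = 0.015, 0.03 after adjustment over 2 hairpins, smallest possible 0.005). This test was added after the data were seen, and the differences it joins were 0.59 (EV) and 1.27 (MPC1 KO). Arm ratios often differed between the lines: of 70 hairpins with a mean of at least 100 counts on each arm, 44.3% did not overlap between the EV groups and 61.4% between the MPC1 KO groups, and miR-30e came in place 10 and in place 3 from the top. For miR-30a it gave -0.38 (exact permutation p = 0.075 before and after adjustment).

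Between the genotypes of Molm-14 the log2 ratio of miR-30e was 1.60 ± 0.474 in EV and 2.08 ± 0.0950 in MPC1 KO, a difference of 0.48 (exact two-sided permutation p = 0.1, 0.48 after adjustment, n = 3 against 3). All 3 knockout libraries were above the controls. Of the 70 hairpins this was the largest difference upwards, and 28.6% of them had groups that did not overlap. Without Molm-14 EV replicate 2 it was 0.21, in place 15 of 70. In MV4-11 the difference was -0.20 (exact permutation p = 0.4, 0.48 after adjustment), with overlapping groups. Without MV4-11 EV replicate 3, the lowest of the controls, it was -0.40 and the knockout libraries all lay below the other controls. The same was then seen for miR-30a and miR-30b but not for miR-30d. Groups of fewer libraries lie apart more easily, and the share of hairpins without that library was not computed. With all libraries, 11.4% of the 70 hairpins had groups that did not overlap in this comparison.

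Molm-14 EV replicate 2 had a lower 5p to 3p ratio than its group in many hairpins. The log2 ratio was below the mean of the other 2 libraries for 45 of the 70 hairpins, with a median deviation of -0.14. It was -0.82 for miR-30e and -0.70 for miR-30a, which is not one of the 70. Over all 12 libraries the number of hairpins below ran from 25 to 45. MV4-11 EV replicate 3 stood low in the same way, in 43 of 70 hairpins, at a median of -0.12, with -0.58 for miR-30e and -0.72 for miR-30a. Molm-14 MPC1 KO replicate 2 was also below in 43 of 70, at a median of -0.033, with -0.15 for miR-30e and 0.11 for miR-30a.

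The miR-30a hairpin gave 11.3 to 20.0 (EV) and 13.5 to 16.8 (MPC1 KO) reads of 5p per read of 3p in MV4-11, and 7.71 to 12.6 (EV) and 11.2 to 14.5 (MPC1 KO) in Molm-14. Its log2 ratio differed by -0.083 between MPC1 KO and EV in MV4-11 (exact permutation p = 0.8) and by 0.29 in Molm-14 (exact permutation p = 0.4). Between the EV groups it differed by -0.57 (exact permutation p = 0.3). The latter 2 were 0.055 and -0.33 without Molm-14 EV replicate 2. Without MV4-11 EV replicate 3 the MV4-11 value was -0.32 and the EV value -0.81. The counts of its 3p arm, at most 71, limit the precision of these ratios. Whether that arm's counts include reads of the near-identical miR-30e-3p was not tested.

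Of the chromosome 8 hairpins, miR-30d gave 194 to 336 reads of 5p per read of 3p over the 12 libraries, above the other 3 hairpins in each library. miR-30b gave 13.6 to 26.3, a range that overlapped that of miR-30a. In Molm-14 all 3 MPC1 KO libraries lay above EV for miR-30b (21.0 to 26.3 against 14.3 to 18.6), a log2 difference of 0.46, or 0.34 without Molm-14 EV replicate 2. Groups did not overlap in this comparison for 28.6% of the 70 hairpins. For miR-30d the genotypes overlapped (210 to 254 against 194 to 269). These ratios were added after the data were seen and were not tested.

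**Figure D5:**
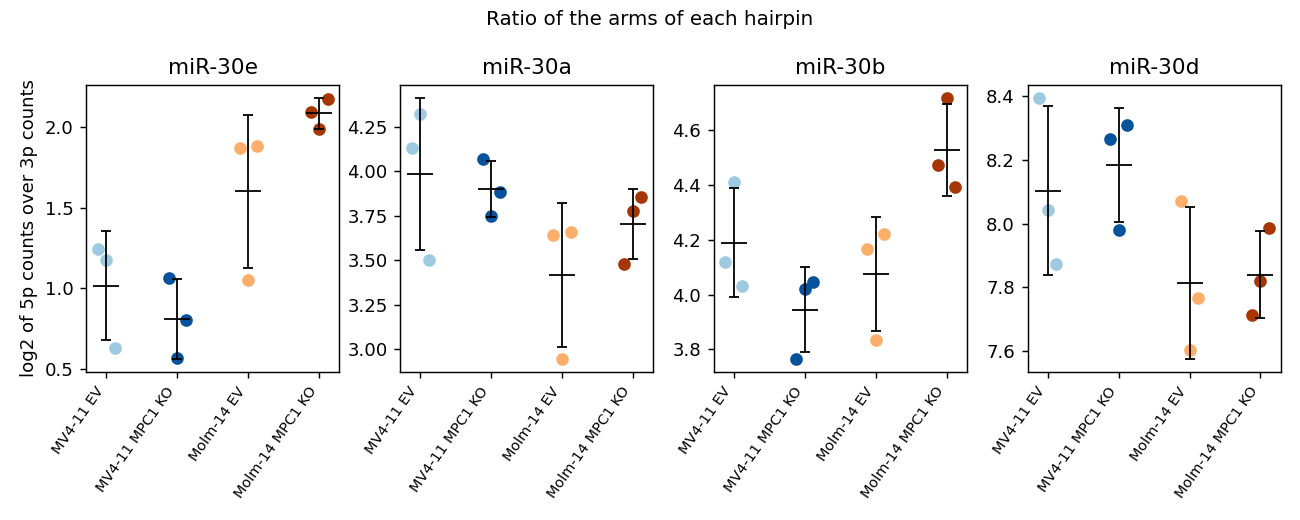
Log2 of 5p counts over 3p counts in each library for 4 hairpins, with the group mean and SD (n = 3) in black and a separate y range in each panel. For miR-30e all Molm-14 libraries but EV replicate 2 (at 1.05) lie above the MV4-11 libraries.

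Among the 166 miRNAs outside the family with a mean of at least 100 CPM, those whose levels ran most like the summed family were sought as the smallest root mean square difference between log2 CPM profiles over the 12 libraries, each centred on its own mean. These were miR-330-3p (0.0938), miR-339-5p (0.107), miR-200c-3p (0.137), miR-98-5p (0.140) and miR-3615 (0.160), against a median of 0.626 over the 166. miR-330-3p stood at group means of 510, 477, 265 and 295 CPM in the order MV4-11 EV, MV4-11 MPC1 KO, Molm-14 EV and Molm-14 MPC1 KO. miR-200c-3p is a marker of epithelium and was on the list of other cell types.

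For miR-30a-5p alone the closest profiles were again miR-330-3p (0.110), miR-339-5p (0.139) and miR-98-5p (0.149). For miR-30d-5p alone they were miR-4326 (0.0488), miR-221-3p (0.170) and miR-330-5p (0.179), against a median of 0.770. miR-4326 stood at group means of 230, 205, 91.1 and 91.5 CPM, in the same order of groups. Among the miR-30 arms themselves the closest pair was miR-30b-5p with miR-30d-3p (0.133), followed by miR-30a-3p with miR-30e-3p (0.172). All of these profiles share the same 12 libraries and the difference between the lines, so the likeness is a description.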

How the data were processed

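Small RNA from MV4-11 and Molm-14 cells, EV or MPC1 KO, was sequenced by the authors after miRNeasy extraction and NEBNext library preparation, with 3 libraries in each of 4 groups. The deposited values are raw counts of reads per mature miRNA, not normalized. Per the labels, the submitters' processing notes name STAR 2.5.2, featureCounts 1.5.1 and GRCh38. How reads matching several miRNAs were counted is not given in the sources used here.

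From these counts edgeR 4.0.16 in R 4.3.3 was run on all 12 libraries (filterByExpr with a minimum count of 10, TMM factors, robust quasi-likelihood fit of 4 group means, Benjamini-Hochberg adjustment over 659 miRNAs, threshold 0.05). Total counts ran from 3870104 to 8683456, so arms under 100 counts carry wide intervals. Alternatives were other scaling factors and filters, DESeq2 1.42.0, limma-voom (limma 3.58.1), a replicate block, each line alone, and leaving out each library. The text names the 7 arms, the other miR-30 arms and, by a fixed rule, the miRNAs with the closest profiles (5 for the summed family, 3 each for miR-30a-5p and miR-30d-5p). The members and lists were chosen with earlier results of these data known. Sequences come from RefSeq and hosts from GENCODE 44. miR-30b and miR-30d are named only.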

Additional observations from a re-analysis of the deposited data

How the results depend on the processing

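Of the 290 values of the 7 arms for MPC1 KO against EV under the alternatives, 1 passed an adjusted p of 0.05 (miR-30e-3p without Molm-14 EV replicate 1), so leaving out libraries gave 0 to 1 arms called in Molm-14. Between the MPC1 KO libraries 4 to 7 arms were called when a library was left out, and 4 of 5 tested with a mean of at least 100 counts. The share of miR-30d-5p in Molm-14 MPC1 KO was 59.1% of all miR-30 arms of the table. The line difference in the miR-30e log2 arm ratio was 0.93 with both genotypes (exact permutation p = 0.015), in a test added after the data were seen. It was 0.59 between the EV groups (exact permutation p = 0.3). All reversals touched values that passed in no fit where they reversed. The largest of these in the main fit was 0.15, the difference of effects for miR-30c-5p. In MV4-11 (MPC1 KO against EV) miR-30a-3p was 0.011 with RLE factors, 0.074 with total count only, 0.014 with no filter and 0.011 with limma-voom. Upper-quartile factors gave -0.028 for miR-30e-3p, -0.062 for miR-30b-3p and -0.087 for miR-30c-1-3p, which was -0.012 when MV4-11 was fitted alone. In Molm-14 miR-30c-5p was 0.025 with upper-quartile factors and 0.044 with limma-voom. Between lines, upper-quartile factors gave miR-30e-5p -0.073 (EV) and miR-30c-1-3p 0.0011 (MPC1 KO). These factors moved the median of all miRNAs from -0.0035 to -0.12 in MV4-11 and from 0.060 to -0.12 between the EV lines. The cause of these reversals was not tested.

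Leaving out each library gave log2 fold changes of -0.11 to 0.10 for miR-30a-3p and -0.038 to 0.092 for miR-30c-1-3p in MV4-11. In Molm-14 it gave -0.10 to 0.14 for miR-30a-5p, -0.32 to 0.30 for miR-30c-5p and -0.021 to 0.16 for miR-30d-3p. For the difference of effects it gave -0.084 to 0.22 (miR-30a-5p) and -0.20 to 0.42 (miR-30c-5p), and between lines -0.020 to 0.27 (miR-30e-5p, EV) and -0.038 to 0.018 (miR-30c-1-3p, MPC1 KO). The miR-30a log2 arm ratio in MV4-11 ran from -0.32 to 0.085.

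Pairing of the libraries by replicate number was not clear: 3 of 12 same-numbered pairs had correlated deviations over 0.1 (-0.16 to 0.18). A pair with different numbers reached 0.25. With so few libraries per group this check cannot decide whether they were paired. With a replicate block 0, 0, 0, 5 and 7 arms were called in the 5 comparisons, as without it, and miR-30a-3p in MV4-11 was 0.00023. Depth limits miR-30c-5p and miR-30a-3p most, at 6 to 60 and 23 to 71 counts per library.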
